A study of Mus musculus with 6 samples.

Results

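The 6 Dlx genes that lie in 3 linked pairs were examined for binding of SP8 in mouse forelimb ectoderm: Dlx1 with Dlx2, Dlx3 with Dlx4, and Dlx5 with Dlx6. The rule takes them by name, as 6 of 21523 protein-coding genes, and the family was proposed with earlier results on these peaks known. SP8, a DNA-binding zinc-finger protein of the same family as the KLF factors, was profiled by ChIP-seq, the sequencing of DNA pulled down with a protein. Around the 3 pairs, every peak of the authors' SP8 replicate 1 list was taken whose centre lay within 500 kb of the outer boundaries of a pair. This gave 9 of the 1451 peaks of the list.

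The design had 6 libraries in 4 groups, all from E10.5 limb ectoderm on a C57BL6J background. The 2 SP8-FLAG immunoprecipitations and their 2 inputs came from embryos homozygous for a knock-in Sp8 allele with a FLAG tag (labelled Sp8FL KI), and an antibody to FLAG was used for the pull-down. The H3K4me2 immunoprecipitation and its input, 1 library each, were labelled WT, although their protocol text also names the knock-in embryos. Each SP8 replicate pooled the ectoderm of 50 forelimb buds, so no embryo can be told from another. The list is 1 call set without depth, peak height or input values, and it carries no replicate check. A peak list holds no expression, so the ectoderm label was not checked against marker genes.

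Dlx genes encode homeodomain transcription factors of the Distal-less family. The genes of a pair face each other, with their 3′ ends inward, and share enhancers that lie in the stretch between them and outside it. In the limb bud several of them are active in the apical ectodermal ridge, the thickened rim that drives outgrowth. Loss of Dlx5 and Dlx6 together causes split hand and foot malformation in mice. Dlx1 and Dlx2 are best known for forebrain interneurons and the pharyngeal arches, and Dlx3 for skin, hair and placenta. SP8 and its relative SP6 are required for ridge formation. SP factors bind GC-rich boxes, and homeodomains bind AT-rich sites around TAAT.

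Sequence was at hand for promoter windows only, in the RefSeq promoter table of GRCm38.p6, which holds 250 bases before and 50 after a start site. The table had windows for 2 of the 6 Dlx genes (Dlx1 and Dlx2). It also had windows for the opposite-strand genes Dlx4os, Dlx6os1 and Dlx6os2, which begin within the other pairs. The Dlx6os2 window and the window at a further Dlx6os1 start are neither shown nor described here. The sequences below show the single promoter window near the pairs that a peak overlapped. They also show promoter bases of Dlx1, Dlx2, Dlx4os and Dlx6os1, where no peak lay. Each is printed 5′ to 3′ on the gene's own strand. Capitals mark GGCGG (the core of the GC box), CACCC (the core of the CACCC box) and TAATT (the core of a homeodomain site) on either strand.

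Platr26, the 223 bases of peak 271 inside its promoter window, chr2:71719167-71719389, + strand: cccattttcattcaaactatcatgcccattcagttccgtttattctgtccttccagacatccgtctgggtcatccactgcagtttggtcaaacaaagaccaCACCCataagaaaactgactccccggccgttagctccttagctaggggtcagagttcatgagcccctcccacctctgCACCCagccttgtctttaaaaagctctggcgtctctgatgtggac
Dlx1, the 250 bases before its start, chr2:71529195-71529444, + strand: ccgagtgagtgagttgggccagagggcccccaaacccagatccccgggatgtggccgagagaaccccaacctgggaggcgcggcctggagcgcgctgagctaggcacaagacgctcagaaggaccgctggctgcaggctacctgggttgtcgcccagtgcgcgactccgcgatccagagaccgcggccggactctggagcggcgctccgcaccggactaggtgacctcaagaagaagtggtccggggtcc
Dlx2, the 250 bases before its start, chr2:71546755-71547004, - strand: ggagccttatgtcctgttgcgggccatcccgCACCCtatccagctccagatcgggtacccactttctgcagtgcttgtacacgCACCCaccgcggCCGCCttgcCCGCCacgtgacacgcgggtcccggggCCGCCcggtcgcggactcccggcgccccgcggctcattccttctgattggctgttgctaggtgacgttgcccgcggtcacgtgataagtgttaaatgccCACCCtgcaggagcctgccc
Dlx4os, the 250 bases before its start, chr11:95144803-95145052, + strand: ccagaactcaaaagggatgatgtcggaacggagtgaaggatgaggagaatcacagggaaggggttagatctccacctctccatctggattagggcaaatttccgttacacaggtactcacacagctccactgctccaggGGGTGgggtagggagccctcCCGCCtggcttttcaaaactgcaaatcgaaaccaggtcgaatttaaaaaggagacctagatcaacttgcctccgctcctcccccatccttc
Dlx6os1, the 250 bases before its start between Dlx6 and Dlx5, chr6:6869534-6869783, - strand: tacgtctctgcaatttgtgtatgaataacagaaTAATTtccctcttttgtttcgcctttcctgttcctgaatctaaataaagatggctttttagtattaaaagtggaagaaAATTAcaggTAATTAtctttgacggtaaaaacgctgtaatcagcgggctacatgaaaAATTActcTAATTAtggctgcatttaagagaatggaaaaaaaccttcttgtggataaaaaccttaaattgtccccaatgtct

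The Dlx1 and Dlx2 pair held nearly all of the SP8 peaks close to a Dlx gene. Of the 6 peaks within 500 kb of that pair, 4 had their centre between its outer boundaries. The Dlx3 and Dlx4 pair had 2 peaks within 500 kb and the Dlx5 and Dlx6 pair had 1, and neither had a peak between its outer boundaries. The pairs are of like size: Dlx1 to Dlx2 spans 18.6 kb, Dlx3 to Dlx4 26.2 kb, and Dlx5 to Dlx6 18.7 kb. The stretches between the genes are 9.43, 15.2 and 9.83 kb long, in the same order. The windows held 10, 25 and 2 other protein-coding genes, in the same order, and a link between gene number and peak number was not tested.

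**Figure D1:**
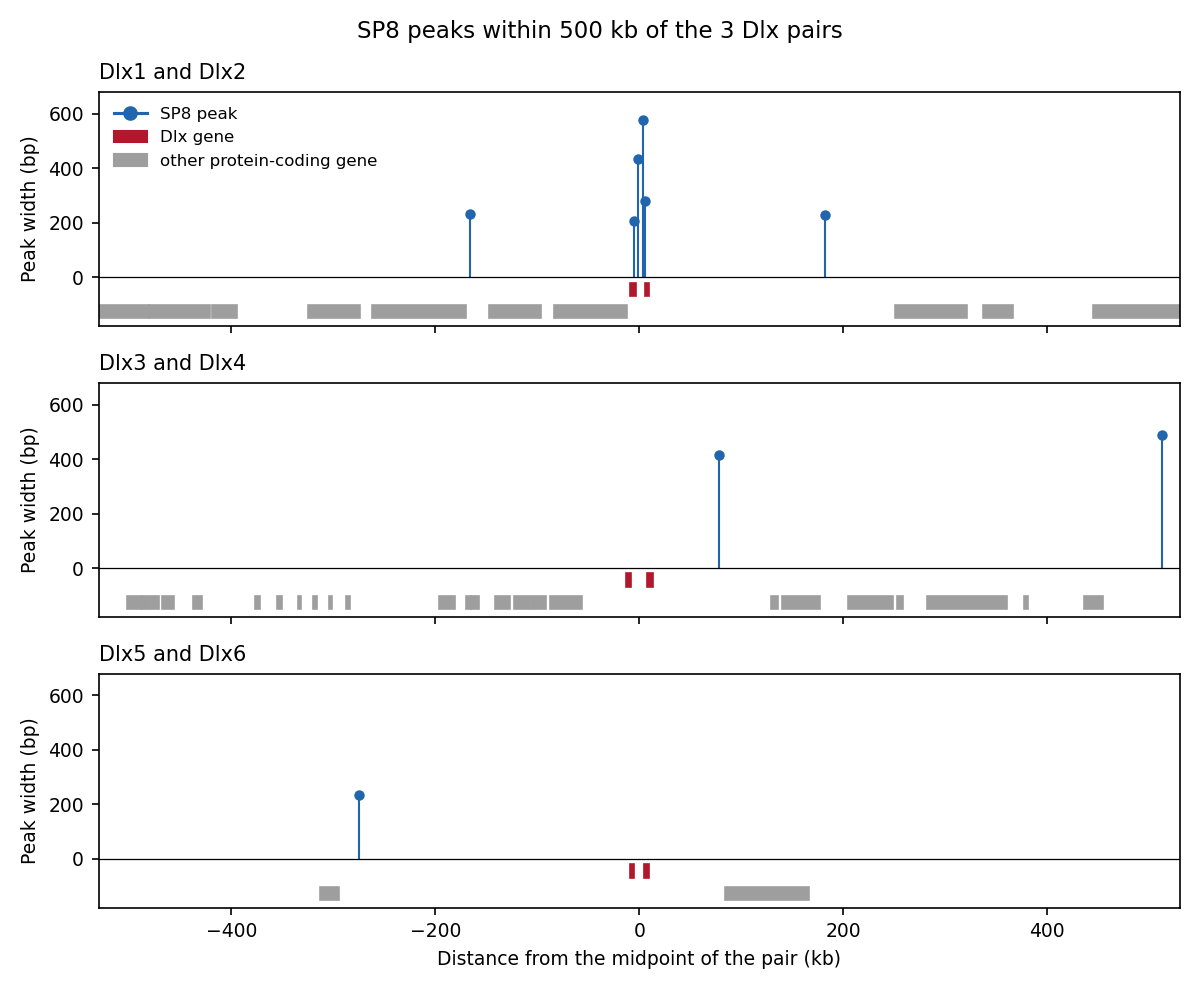
SP8 peaks within 500 kb of each Dlx pair, by distance of the peak from the midpoint of the pair (kb, x axis) and by width (bp, y axis); each blue line with a dot is 1 peak, red boxes are Dlx genes and grey boxes other protein-coding genes. The upper panel has 6 peaks, 4 of them at the genes, the middle panel 2 and the lower panel 1.

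Dlx1 (gene ID 13390) lies at chr2:71528113-71533981 and Dlx2 (13392) at chr2:71543408-71546754. Their start sites in the promoter table are at 71529445 on the + strand and 71546754 on the - strand. All 4 inner peaks therefore lay downstream of both start sites. The Dlx1 start in the promoter table lies inside the annotated gene, past its 5′ boundary at 71528113. The Dlx1 promoter bases shown above thus also lie inside the gene, and the bases before its 5′ boundary are not shown. The Dlx2 start is at the 5′ boundary of the gene.

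Peak 846 (chr2:71532486-71532693, 207 bp) was centred inside Dlx1, 1.39 kb from its 3′ boundary and 3.14 kb downstream of its start. It also lay inside Dlx1as, the noncoding gene antisense to Dlx1. Peak 804 (chr2:71535904-71536338, 434 bp) lay between the genes, 2.14 kb beyond Dlx1 and inside Dlx1as as well. Its distance to Dlx2 was 7.29 kb. It is thus on the Dlx1 side of the stretch between the genes.

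Peak 348 (chr2:71541022-71541601, 579 bp) lay on the Dlx2 side, 2.10 kb from the 3′ boundary of Dlx2 and 7.33 kb from Dlx1. It was the widest of the 9 peaks around the pairs. Peak 1437 (chr2:71543290-71543568, 278 bp) straddled the 3′ boundary of Dlx2. Its centre was 21.0 bp inside the gene, 161 of its bases overlapped Dlx2, and its distance to the Dlx2 start was 3.33 kb. The gene table lists no exons, so no peak was assigned to an exon or intron.

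Together the 4 inner peaks spread over 11.1 kb and covered 1498 bp, or 8.04% of the pair's span. Gaps between neighbours were 3.21, 4.68 and 1.69 kb. In the list, 8 of the 1447 peaks on chromosomes 1 to 19 and X belonged to groups of 4 with centres as close as these (10.8 kb from first to last). They formed 2 groups, this one and 1 on chromosome 18.

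**Figure D2:**
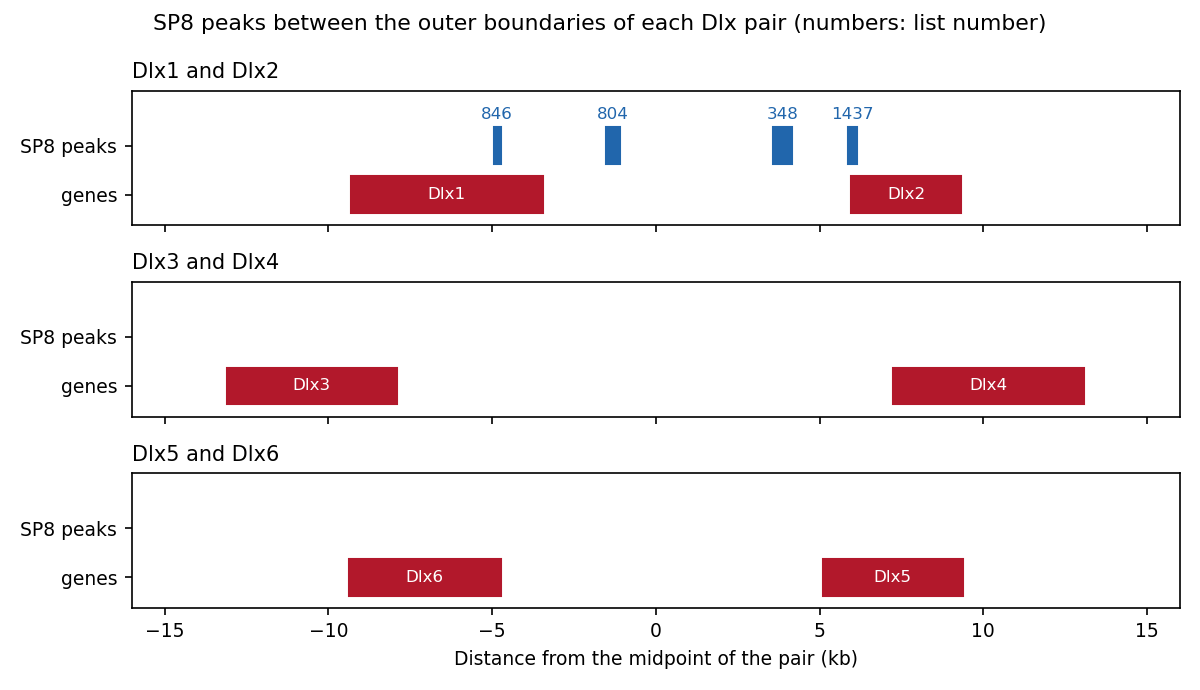
The 3 Dlx pairs drawn to 1 scale, by distance from the midpoint of each pair (kb, x axis); red boxes are the Dlx genes and blue boxes the SP8 peaks, with their list numbers above. Peaks 846, 804, 348 and 1437 lie at and between Dlx1 and Dlx2, and the other 2 pairs hold none.

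The other 2 peaks of the Dlx1 and Dlx2 window lay at similar distances on either side. Peak 295 (chr2:71371656-71371889, 233 bp) was 156.3 kb from Dlx1. It was nearer to Slc25a12, a mitochondrial aspartate and glutamate carrier gene, whose 5′ boundary was 3.99 kb away. On the other side of it, Hat1, a histone acetyltransferase gene, was 17.5 kb away.

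Peak 271 (chr2:71719159-71719389, 230 bp) was 172.5 kb from Dlx2. Its nearest gene was the noncoding gene Platr26, whose start it preceded by 0.143 kb. The nearest protein-coding gene was Itga6, an integrin subunit of epithelial attachment to the basement membrane, at 67.6 kb. Both outer peaks were thus closer to another gene than to a Dlx gene, while the 4 inner peaks were nearest to Dlx1 or Dlx2 among protein-coding genes.

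Dlx3 (13393, chr11:95120117-95125296) and Dlx4 (13394, chr11:95140447-95146294) had 1 peak within 100 kb. Peak 1429 (chr11:95210749-95211163, 414 bp) lay beyond Dlx4, at 64.7 kb from it and 85.7 kb from Dlx3. It was inside the noncoding gene Gm11515, and the nearest protein-coding gene was Tac4, a tachykinin gene, at 50.6 kb. Peak 29 (chr11:95645753-95646242, 489 bp) was just inside the window, 499.7 kb from Dlx4, and 520.7 kb from Dlx3. It lay 21.0 kb from Phb (prohibitin) and 58.3 kb from Ngfr, a neurotrophin receptor gene. The next peaks outside the window were at 0.792 and 0.845 Mb from the pair. Dlx4os, the noncoding gene opposite Dlx4, held no peak.

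Dlx6 (13396, chr6:6863334-6867970) and Dlx5 (13395, chr6:6877801-6882068) had a single peak within 500 kb. Peak 828 (chr6:6597735-6597968, 233 bp) was 265.5 kb from Dlx6 and 279.9 kb from Dlx5. It lay 19.2 kb before the start of Sem1, a proteasome subunit gene whose human counterpart lies in the split hand and foot region of DLX5 and DLX6. No peak lay inside Dlx6os1, also known as Evf2, a noncoding gene of 51.1 kb that spans Dlx6, or inside Dlx6os2.

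Limb enhancers of Dlx5 and Dlx6 are known within the neighbouring gene Dync1i1. Dync1i1 held no peak, and the nearest, again peak 828, was 569.8 kb from it. The whole stretch from Dync1i1 to Sdhaf3, of 1.31 Mb, held 1 peak of the list. Peaks placed on the chromosomes averaged 0.564 per Mb over the list, so this count is not below the average. Beyond the window, the next peaks on chromosome 6 were at 3.72 Mb on the Dlx6 side and at 2.14 Mb on the Dlx5 side. The window of the Dlx1 and Dlx2 pair had its next peaks at 0.964 and 0.925 Mb.

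Distances and counts were then read against all protein-coding genes. A peak centre inside the gene or within 1 kb was found for 2 of the 6 Dlx genes, Dlx1 and Dlx2, and for 4.78% of protein-coding genes. Within 10 kb the number was again 2 of 6, against 6.48% of protein-coding genes. Within 100 kb it was 4 of 6, against 20.1%. Within 500 kb all 6 had a peak, against 51.0%. Members of a pair shared their peaks, so the 6 genes are 3 observations at most.

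By number of peaks, Dlx1 and Dlx2 stood at the upper end and the other 4 genes did not. Dlx1 and Dlx2 each had 6 peaks within 500 kb, and 1.20% of protein-coding genes had 6 or more. Dlx4 had 2. Dlx3, Dlx5 and Dlx6 each had 1, and 74.0% of protein-coding genes had at most 1. Dlx1 had 4 peaks inside it or within 10 kb, which held for 2 genes, or 0.00929% of the protein-coding genes. The second gene, named after its value was seen, was Zfp503, a zinc-finger gene on chromosome 14. Dlx2 had 3 peaks within 10 kb, since peak 846 lay 10.8 kb away.

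By distance, 0.228% of protein-coding genes had a peak centre as near to a boundary as Dlx2 and 3.08% as near as Dlx1. The share was 15.1% for Dlx4 and 17.9% for Dlx3. It was 36.1% for Dlx6 and 37.2% for Dlx5, and the median distance over protein-coding genes was 481.2 kb. Sorted by distance, the order was Dlx2, Dlx1, Dlx4, Dlx3, Dlx6, Dlx5. The steps within the last 2 pairs come from the distance between the genes, since both genes of a pair have the same nearest peak.

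**Figure D3:**
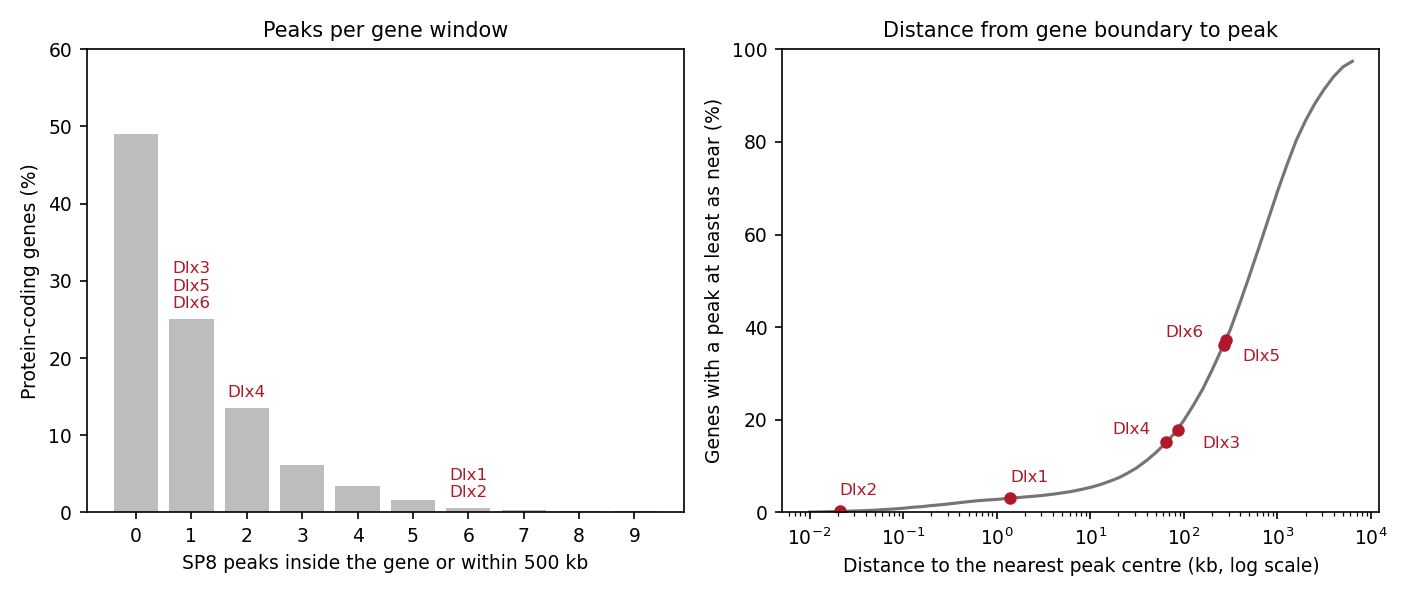
Left, the percentage of protein-coding genes (y axis, bars) by the number of SP8 peaks inside the gene or within 500 kb (x axis), with the Dlx genes named above their bar; right, the percentage of protein-coding genes with a peak at least as near (y axis) against distance from the nearer gene boundary to the peak centre (kb, log x axis), with the Dlx genes as red points. Dlx1 and Dlx2 are in the bar at 6 peaks and at the left of the curve, and the other 4 genes are in the bars at 1 and 2 peaks.

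The pairs were also compared with other neighbouring protein-coding genes. Neighbours with an outer span no longer than the 26.2 kb of Dlx3 and Dlx4 made 3941 pairs. At least 1 peak centre lay between the outer boundaries of 1 of the 3 Dlx pairs and of 3.60% of these pairs. The span with 4 or more peaks was that of Dlx1 and Dlx2 alone, or 0.0254% of the pairs. Of the others, 136 had 1 peak, 4 had 2 and 1 had 3. Since the Dlx genes were proposed with peaks at Dlx1 and Dlx2 known, these shares describe the list and are no test.

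The 9 peaks differed in width and in their place in the list. Their widths ran from 207 to 579 bp with a median of 278 bp, and the whole list had a median of 336 bp and quartiles of 257.5 and 465.5 bp. Of the 9, 4 were below the lower quartile, 3 between the quartiles and 2 above the upper. The number that each peak carries runs from 1 to 1451 in file order, and what it ranks is not stated. The 4 inner peaks had the numbers 348, 804, 846 and 1437, and the outer peaks of the same pair 271 and 295. Around Dlx3 and Dlx4 the numbers were 29 and 1429, and near Dlx5 and Dlx6 828. Peaks 1429 and 1437 are among the last of the list, and they are the nearest peaks of Dlx3, Dlx4 and Dlx2.

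Few of the promoter windows near the pairs were overlapped, as elsewhere in the genome. The windows of 500 kb around the pairs held 21, 30 and 10 promoter windows of the RefSeq table, and a peak overlapped 1, 0 and 0 of them. Over the whole table a peak overlapped 1.51% of promoter windows, so the share near the pairs is close to the background. Counted by peak, 1 of the 9 peaks overlapped a promoter window, and 399 of the 1447 peaks (27.6%) did so on chromosomes 1 to 19 and X. The other 4 Dlx genes have no promoter window in the table. The overlapped window was that of Platr26, and the bases shown above are the part of peak 271 inside it. Neither the Dlx1 nor the Dlx2 promoter window was overlapped, although both genes had peaks within 4 kb of their start sites in the promoter table.

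The promoter sequences shown differed in base composition. In the 250 bases before the start, 86.8% of the 491 promoter windows that a peak overlapped held a GC box (GGGCGG on either strand). Among all 32619 windows 33.0% did. The medians of GC content in these bases were 68.0% and 52.4%. In the full 300 bases of the windows the shares with a GC box were 89.2% and 35.9%. The Dlx1 bases, which precede a start inside the annotated gene, had 68.0% GC and no GC box. In the 50 bases after that start, which are not shown, 1 GC box lies. The Dlx2 bases had 66.4% GC, with 1 GC box 119 bases before the start, and with 1 CACCC box (CCACCC on either strand) at 21 bases before it. The GC content of these 2 promoters is at or near the median of the windows that a peak overlapped, but neither was itself overlapped.

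The Platr26 bases of peak 271 had 50.2% GC. They held no GC box, no CACCC box and no full homeodomain site (TAATTA). The CACCC core alone occurred 2 times. The same stretch of all promoter windows held a GC box in 29.1%, a CACCC box in 25.4%, a full homeodomain site in 4.55% and a CACCC core in 48.3% of cases. The single promoter peak near the Dlx pairs thus has no GC box in the bases shown, which 80.9% of the windows overlapped by a peak have in that stretch.

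The Dlx6os1 bases shown lie between Dlx6 and Dlx5, before the start at 6869533. This start is inside the annotated gene, whose 5′ boundary is at 6871627, and the gene's other start is not covered here. The Dlx6os2 window, which also lies at this pair, is not covered either. The Dlx6os1 values below therefore hold for the bases shown and not for the pair. The bases shown were AT-rich, with 33.2% GC. They held 2 full homeodomain sites, at 130 and 74 bases before the start, where 4.80% of all promoter windows have at least 1 in the 250 bases before the start. Counting both strands, so that a full site counts as 2, the TAATT core occurred 7 times, and 24.9% of promoter windows have at least 1. No GC box was found in them. The Dlx4os bases had 52.4% GC, 1 CACCC box, and neither a GC box nor a full homeodomain site. A CACCC box was found in 28.2% and a GC box in 33.0% of all such stretches. No peak overlapped either of these promoter windows. The sequences under the 4 inner peaks of Dlx1 and Dlx2 were not used here.

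A list of 23 genes tied to Dlx genes in the limb and elsewhere was set beside the pairs: ectodermal partners, genes of the split hand and foot regions, neighbours of the pairs, and genes known downstream of Dlx factors. A peak centre inside or within 100 kb was found for 12 of the 23 (52.2%), with 11 different nearest peaks, beside the 20.1% of protein-coding genes given above. Within 10 kb the number was 8, beside 6.48% of protein-coding genes, and within 500 kb it was 17, beside 51.0%. Only Sp8 among them had 2 peaks inside or within 10 kb, and none had more, where Dlx1 had 4. Sp8 is the gene that carries the FLAG knock-in in these embryos. The list was chosen with earlier results on these peaks known, so its count is a description.

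Among ectodermal transcription factors, Trp63, the regulator of stratified epithelium, held a peak 7.12 kb from its boundary. The homeobox genes Msx1 and Msx2 had a peak at 4.25 and 0.356 kb. Sp6 and Sp8 each held a peak, at 2.59 and 2.81 kb from a boundary. The Sp8 peak, 3587 bp wide, was the widest of the list. It lies in the gene altered by the FLAG knock-in, and an effect of the knock-in on it was not tested.

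Among split hand and foot genes, the signalling gene Wnt10b held a peak at 2.14 kb, and Bhlha9, a basic helix-loop-helix gene, had a peak at 6.04 kb. The ridge growth factor Fgf8 had a peak at 0.258 kb, and the same peak, 82.7 kb away, was nearest to Fbxw4. Sem1, in the region of Dlx5 and Dlx6, was 19.2 kb from peak 828. Of the genes downstream of Dlx factors or involved in signalling to them, Bmp7 had a peak at 11.8 kb and Gbx2 at 97.5 kb. The Gbx2 peak was 199 bp wide, the smallest width in the list. The other 11 genes had no peak within 100 kb, 6 of them none within 500 kb.

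**Figure D4:**
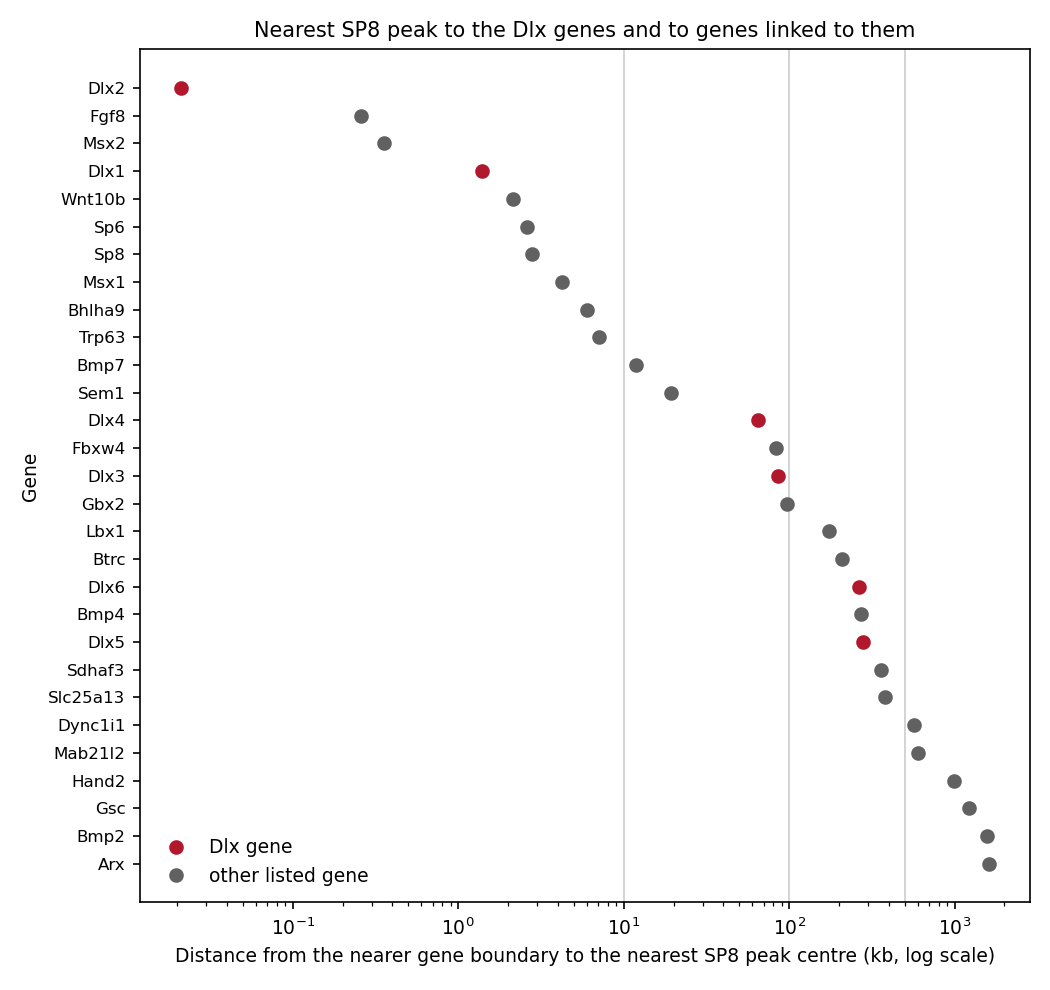
Distance from the nearer gene boundary to the nearest SP8 peak centre (kb, log x axis) for the 6 Dlx genes (red) and the 23 other listed genes (grey), sorted by distance; vertical lines stand at 10, 100 and 500 kb. Dlx2 (0.0210 kb) and Dlx1 (1.39 kb) are among the nearest, and Dlx5 and Dlx6 are at 279.9 and 265.5 kb.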

How the data were processed

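ChIP-seq of SP8-FLAG and H3K4me2 was done on E10.5 mouse forelimb ectoderm. The authors deposited the list of SP8 replicate 1 peaks used here, which gives start and end in bp and a number from 1 to 1451 in file order, a score only in the sense of a number whose meaning is not stated. Its name carries a q of 0.1 and a fold change of 3. Per the submitters' processing notes, FastQC, SAMtools, TopHat2, deepTools and MACS2 and the builds GRCm38 and mm10 were used. Versions, caller settings, control library and pooling are not given in the sources used here. Depth is unknown. The other libraries were not analysed here.

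Positions are printed as deposited; width is end minus start. Genes came from the RefSeq table of GRCm38.p6, of which 21523 protein-coding genes on chromosomes 1 to 19 and X starting at 3 Mb or beyond were used. Peaks were placed by their centre. No test was made, since 1 list has no replicates; shares over all protein-coding genes stand as background. Named were the 6 Dlx genes, the protein-coding genes nearest to a peak in the windows or holding one, noncoding genes opposite a Dlx gene, and members of the partner list with a peak within 100 kb; Hat1, Ngfr, Platr26, Gm11515, Zfp503, Dync1i1 and Sdhaf3 were named after their values were seen. Another gene first on the partner list is not reported here. The members and lists were chosen with earlier results of these data known. Of the 6 Dlx genes, 2 had a promoter window. Motifs were searched on both strands. Alternatives changed the window, the placing of peaks, the part of the list, the gene set, the start site and the motif. Python 3.11.15 and pandas 2.3.3 were used, and the counting was tested on simulated peaks.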

Additional observations from a re-analysis of the deposited data

How the results depend on the processing

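Of 88 alternative values for 29 results, 58 stayed within 1.5 times the main value and 30 did not. With windows of 10, 100, 250 and 1000 kb the Dlx1 and Dlx2 pair had 4, 4, 6 and 8 peaks, the Dlx3 and Dlx4 pair 0, 1, 1 and 5, and the Dlx5 and Dlx6 pair 0, 0, 0 and 1. In each of these windows Dlx1 and Dlx2 had the most.

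Keeping the peaks in the lower 50% of list numbers left 3, 1 and 0 peaks within 500 kb of the pairs, in the same order. The nearest peak was then 7.33 kb from Dlx1, 2.10 kb from Dlx2, 520.7 kb from Dlx3, 499.7 kb from Dlx4, 2140.6 kb from Dlx5 and 2154.7 kb from Dlx6. The shares of protein-coding genes fell to 3.23% at 10 kb, 10.7% at 100 kb and 32.8% at 500 kb. Fewer peaks entered these values by construction. From start sites, Dlx1 and Dlx2 were 3.14 and 3.33 kb from a peak; by peak edge, Dlx2 was at 0 kb. With all genes, 4.16% had a peak within 10 kb. Without peaks of the smallest width, 199 bp, 11 of the 23 partner genes had a peak within 100 kb. From start sites, 7 of the 14 partner genes with a promoter window had a peak within 100 kb, beside 17.9% of protein-coding genes measured the same way.

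In the 300 bases of the promoter windows, the shorter GGCGG was found 4 times at Dlx2 and 1 time at Dlx4os. TAATT was found 7 times in the Dlx6os1 window used. CACCC alone, an alternative chosen after the sequences had been seen, was found 3 times at Dlx2. Without the 50 bases after the start, Dlx1 had 0 GC boxes and 0 CACCC boxes.

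Distances from start sites were not run for Dlx3 to Dlx6, which have no promoter window here, and the width around Dlx5 and Dlx6 was not run at 100 kb, where no peak lay. No paired analysis was possible because the values come from 1 list of 1 replicate, and for that reason no replicate was left out. The depth is unknown, and a gene without a listed peak cannot be told apart from a gene bound below the authors' threshold.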
